A study of Homo sapiens with 2 samples.

Results

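The genes described are 10 genes of macrophage lipid handling that are known from foam cells, the lipid-laden macrophages of arterial plaques: LPL, PPARG, ABCA1, ABCG1, PLIN2, FABP4, FABP5, CD36, NR1H3 and MYLIP. They were read through every probe whose single gene symbol in the platform annotation is 1 of these 10 names, which gave 22 of 30113 such probes and 10 of 20046 named genes. All 10 genes had at least 1 probe. RNA came from THP-1, a human monocytic leukaemia line, in 2 stable derivatives grown in the same medium with puromycin at 400 ng/ml. One derivative, shLY6E, carries a short hairpin RNA against LY6E (a GPI-anchored surface protein), and the other, shCtrl, carries a scrambled hairpin. The labels name no differentiating agent or lipid loading and do not say whether either derivative is a clone. Total RNA was read on 1 single-colour Illumina array per derivative.

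Liver X receptors and peroxisome proliferator-activated receptors (PPAR) are nuclear receptors that govern these genes in macrophages. Liver X receptors (LXR), of which NR1H3 encodes the alpha form, bind oxysterols and, paired with a retinoid X receptor, switch on cholesterol export through ABCA1 and ABCG1 and the loss of LDL receptors through MYLIP. PPAR gamma, encoded by PPARG, senses fatty acid derivatives and raises genes of fatty acid uptake, binding and storage, among them CD36, FABP4, LPL and PLIN2.

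In the shLY6E array LPL and PPARG were the members at least 2-fold higher, at 5.33-fold and 2.54-fold, and none (0) was at least 2-fold lower. ABCA1 and PLIN2 were 1.89-fold and 1.88-fold higher, and ABCG1, near the detection limit, was at least 1.75-fold higher. CD36, FABP5, NR1H3 and MYLIP were within 1.5-fold, and FABP4 was detected on neither array. The background was all 10565 genes with a detected probe, of which 2.27% passed 2-fold upwards in shLY6E and 2.55% downwards, against 2 and 0 of the 9 members with a detected probe. At 1.5-fold in the main setting, 6.55% of all genes were higher and 9.63% lower, against 5 and 0 of these 9 members. ABCG1 entered these 9 only through its signal in shLY6E, so its direction was fixed by the filter. The members were chosen with earlier results of these data known, so their counts beside the background are a description and not a test.

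With 1 array per group no difference has a replicate check, no p-value between the arrays was computed, and having only 2 arrays limits precision. Differences are of normalized log2 signal, shLY6E less shCtrl. A probe counts as detected at a detection p-value under 0.01, which ranks it against control probes on its own array and does not compare the arrays. 16378 of 47321 probes were detected in shLY6E and 16283 in shCtrl. Detection began at an intensity of 106 in shLY6E and 129 in shCtrl. Probes at background (detection p-value of 0.5 or more) had median intensities of 88.0 and 104, so shCtrl was the brighter array before normalization. The only measure of spread was that between probes of a gene on the same arrays: across 2254 genes with 2 or more probes detected on both, the within-gene SD of the difference was 0.28, and it was 0.32 for genes with a mean log2 signal below 7, 0.27 from 7 to 9 and 0.22 from 9 up. This probe spread does not include variation between arrays or between cultures. LY6E itself had an intensity of 253 in shLY6E and 1049 in shCtrl, a difference of -1.88 or 3.67-fold lower.

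**Figure D1:**
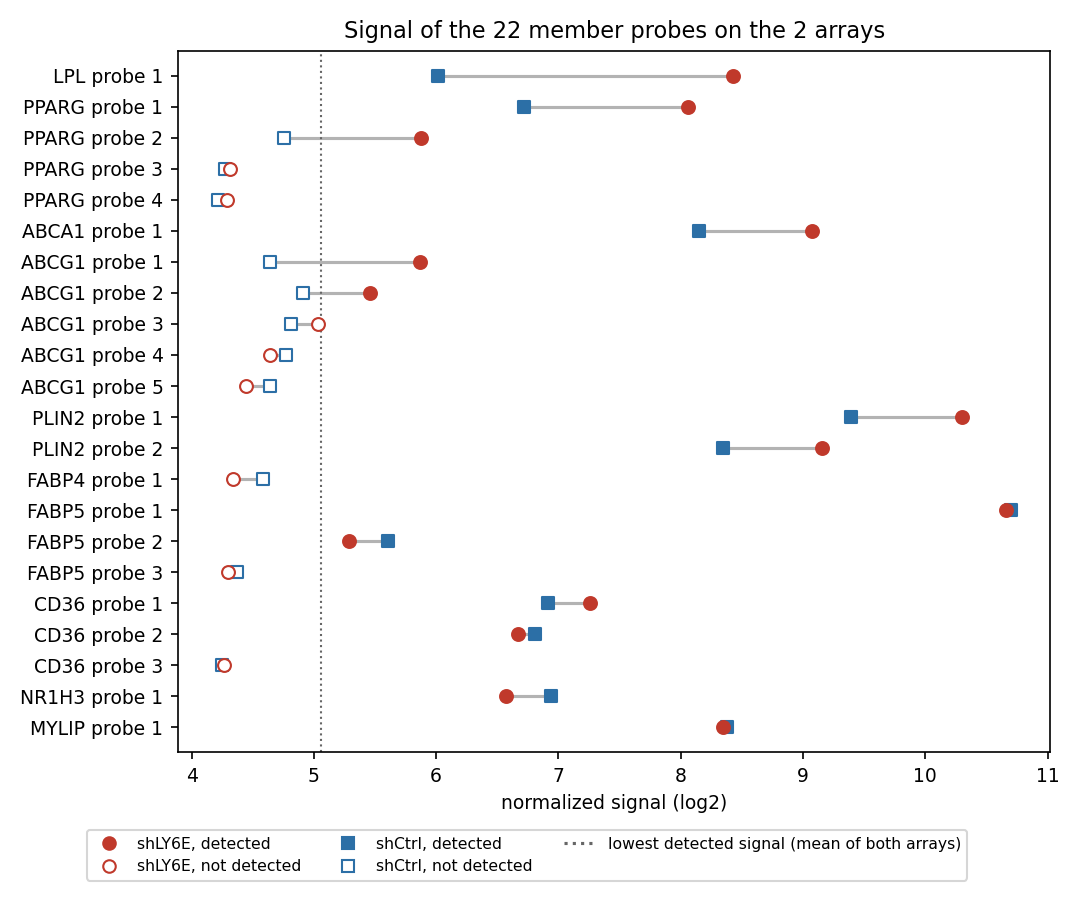
Normalized signal (log2) of each of the 22 member probes on the shLY6E array (circles) and the shCtrl array (squares), filled where detected, with a grey line joining the 2 arrays and probes of a gene numbered from the brightest. LPL shows the widest gap (8.43 against 6.02), and 8 probes were detected on neither array.

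PPARG, the receptor gene, had 4 probes. Its brightest probe had an intensity of 289.8 in shLY6E and 217 in shCtrl, or 8.06 and 6.72 after normalization, a difference of 1.35. The next had an intensity of 126 in shLY6E, where it was detected, and 120.2 in shCtrl, where its detection p-value was 0.0545, so it gave a bound of at least 1.76-fold higher in shLY6E. That probe passed the detection threshold only through shLY6E, so its direction was fixed by the filter. The difference of the brightest probe, detected on both arrays, exceeded the probe spread of 0.27 at its brightness. The remaining probes lay at background on both arrays, with intensities of 87.6 and 101 for one and 86.2 and 96.0 for the other. One of these is annotated to the same transcript as the brightest, NM_015869, and where on the transcript each probe lies was not analysed here.

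NR1H3, the LXR alpha gene, went the other way by a small amount. Its probe had an intensity of 155 in shLY6E and 238 in shCtrl, or 6.57 and 6.94 after normalization, a difference of -0.37. That is 1.29-fold lower and close to the probe spread of 0.32 for dim genes. The retinoid X receptor genes, whose products pair with both receptor families, were nearly level: RXRA differed by -0.20 and RXRB by -0.066.

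ABCA1 encodes the membrane transporter that loads cholesterol and phospholipid onto lipid-poor apolipoprotein. Its single probe had an intensity of 509 in shLY6E and 434 in shCtrl, or 9.07 and 8.15 after normalization, a difference of 0.92. It was high on both arrays relative to background, and the difference exceeded the probe spread of 0.27 at its brightness. Among the members whose start-site windows were read, ABCA1 is the 1 with an LXR-type element. The 250 bases before its start are therefore shown (RefSeq, GRCh38.p14, minus strand, chr9:104928156-104928405, read in the direction of the gene). The capitals mark 2 copies of AGGTCA, each with 1 mismatch and both read here as the reverse complement, with 4 bases between them (a direct repeat called DR4), at bases -69 to -54 from the start.
ABCA1: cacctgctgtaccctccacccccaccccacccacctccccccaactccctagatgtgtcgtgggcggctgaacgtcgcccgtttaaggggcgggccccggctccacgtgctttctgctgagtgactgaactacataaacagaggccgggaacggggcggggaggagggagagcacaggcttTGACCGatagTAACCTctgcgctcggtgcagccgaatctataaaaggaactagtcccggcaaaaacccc

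The search allowed 2 mismatches over both copies of AGGTCA on either strand, in the 250 bases before each start. At that setting 714 of 35116 start-site windows (2.03%) held a DR4, and 903 (2.57%) held a DR1, the repeat with 1 base between the copies that PPAR pairs prefer. Windows were listed for 6 members, and not for LPL, ABCG1, FABP4 or FABP5. ABCA1 was the 1 with a DR4 match, and none was found in the 4 windows of NR1H3, the 6 of PPARG, the 6 of CD36 or the single windows of MYLIP and PLIN2. CD36 held a DR1 in 1 of its 6 windows, at bases -147 to -135 from that start (chr7:80638369-80638381), read here in the direction of the gene (plus strand) with the AGGTCA copies as the reverse complement. It is shown because it is the PPAR-type match among the 6 members whose windows were read.
CD36: TGGCCTcTGACTT
A match describes letters in the window and not a bound site, and the windows leave out distal elements.

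ABCG1 encodes a transporter that passes cholesterol to mature lipoprotein particles. It had 5 probes, all dim. The brightest had an intensity of 126 in shLY6E, where it was detected, and 117 in shCtrl, with a detection p-value of 0.0974, which gave a bound of at least 1.75-fold higher. The second had 115 and 124, with a bound of at least 1.32-fold, and both are annotated to NM_016818. The remaining probes, annotated to other transcripts, were detected on neither array: their measured differences were 0.22, -0.13 and -0.20. Only the probes of NM_016818 were therefore readable, and only in shLY6E. The filter thus fixed the direction of both bounds.

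MYLIP, which encodes the ligase that sends LDL receptors for degradation, hardly differed. Its intensity was 336 in shLY6E and 494 in shCtrl, or 8.35 and 8.38 after normalization, a difference of -0.031. The 3 effector genes of LXR thus differed by 0.92 for ABCA1, by at least 0.81 for ABCG1 and by -0.031 for MYLIP on the same pair of arrays.

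LPL encodes lipoprotein lipase, the secreted enzyme that frees fatty acids from circulating triglyceride. It had the largest difference among the members. Its single probe had an intensity of 351 in shLY6E and 167 in shCtrl, or 8.43 and 6.02 after normalization, a difference of 2.41. LPL ranked 22 from the highest of the 9364 genes detected on both arrays, against 111 for PPARG, 240 for ABCA1 and 249 for PLIN2. The shCtrl signal of LPL was within 1.5 times the lowest detected intensity there, so the fold depends on the background step: without background correction the difference was 1.53, and in the authors' processed intensities, 333 and 51.9, it was 2.36.

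CD36, a scavenger receptor for oxidized lipoprotein and fatty acids, had 3 probes that did not go one way. The brightest read 201 on the shLY6E array against 235 for shCtrl, a normalized difference of 0.34. The second had 160 and 225 and differed by -0.14. The third, at 85.1 and 99.1, was at background on both arrays. The readable pair thus differed in sign, and both differences were within 1.5-fold.

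Fatty acid binding proteins carry fatty acids in the cytosol. FABP5 had a bright probe with an intensity of 1399 in shLY6E and 2066 in shCtrl, or 10.66 and 10.70 after normalization, a difference of -0.036. A dim probe of the same transcript had 111 and 148, a difference of -0.32, and the last was at background with 87.0 and 108. FABP5 has near-identical pseudogene copies, so its signal may include transcripts of these copies. FABP4, the adipocyte and macrophage form and a classical PPAR gamma target, had 1 probe with an intensity of 89.2 in shLY6E and 115 in shCtrl, with detection p-values of 0.662 and 0.148. It was not detectable on either array, and no fold is given. Of 12 genes in the list of fatty acid binding proteins and their relatives, 10 had a probe and FABP5 was the 1 detected.

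PLIN2 encodes the protein that coats cytosolic lipid droplets and is stabilized by stored lipid. Its 2 probes, both annotated to NM_001122, gave like values. The brighter had an intensity of 1092 in shLY6E and 893 in shCtrl, or 10.30 and 9.39 after normalization, a difference of 0.91. The other had 534 and 483, a difference of 0.81. The probes differed from each other by less than the probe spread of 0.22, and each difference was larger than it.

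**Figure D2:**
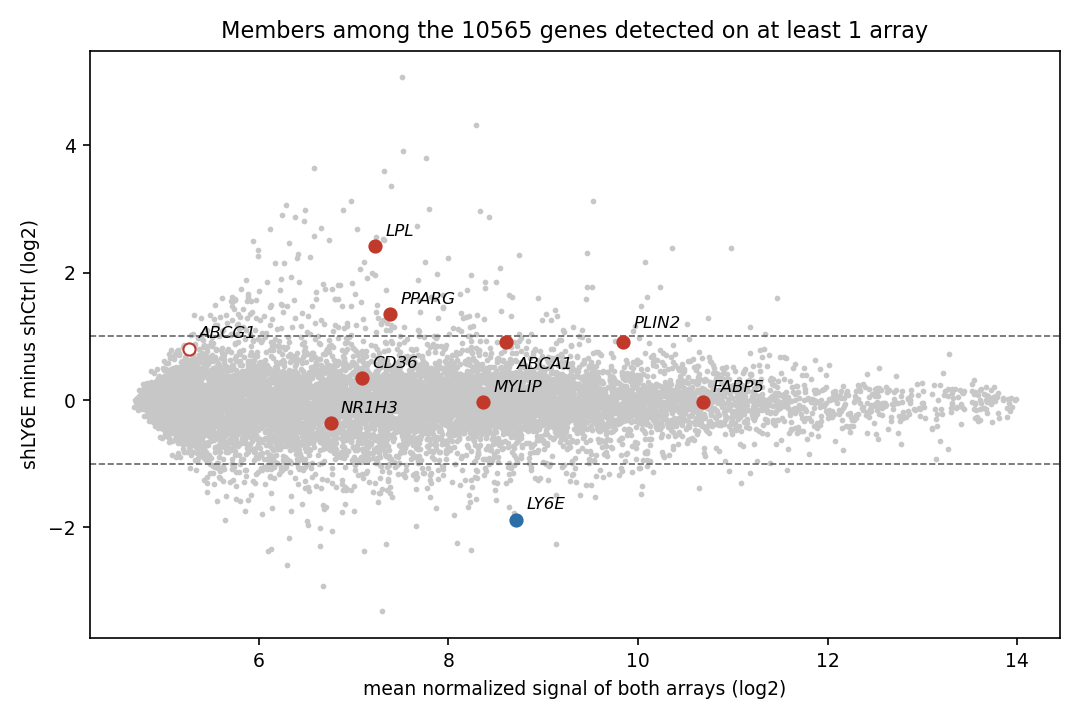
Difference between the arrays (log2, shLY6E minus shCtrl) against mean normalized signal (log2) for each of 10565 detected genes (grey), with the 9 detected members in red, LY6E in blue, the bound of ABCG1 as an open circle and dashed lines at 2-fold. LPL (2.41) and PPARG (1.35) lie above the upper line, while ABCA1 (0.92) and PLIN2 (0.91) lie just below it.

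The members lie on chromosomes 3, 6, 7, 8, 9, 11 and 21, and none lies on chromosome 10, where 324 genes detected on both arrays had a median difference of -0.80, against -0.030 for 9038 genes elsewhere. To see whether a member moved with its surroundings, it was set beside the 10 nearest genes detected on both arrays, 5 on each side in RefSeq order. The neighbours of LPL had a median of -0.087 and ran from -0.56 to 0.49, and those of PPARG had a median of 0.10 and ran from -0.53 to 0.50. For ABCA1 the neighbours ran from -0.68 to 0.53, for PLIN2 from -0.30 to 0.055 and for ABCG1 from -1.31 to 0.28. These 5 members are those already at least 1.5-fold higher, and ABCG1 was not held to detection on both arrays as its neighbours were, so their place above the neighbours is a description only. The neighbours of CD36 had a median of 0.21 and ran up to 1.47, above CD36 itself at 0.34.

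**Figure D3:**
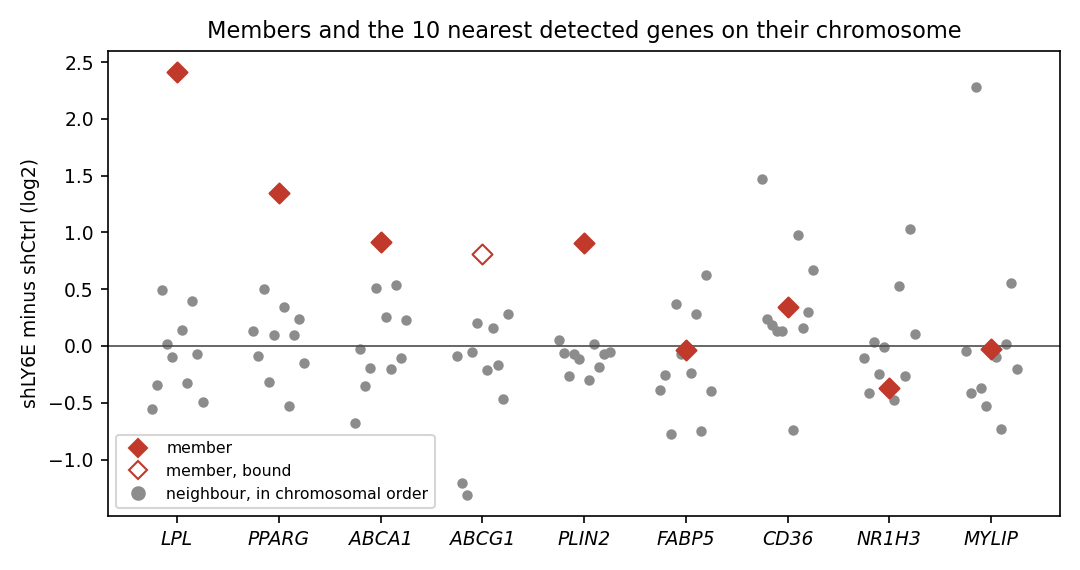
Difference between the arrays (log2, shLY6E minus shCtrl) of each detected member (diamond, open for the bound of ABCG1) and of its 10 nearest detected genes in chromosomal order (grey points). LPL at 2.41, PPARG at 1.35, ABCA1 at 0.92, PLIN2 at 0.91 and the bound of ABCG1 at 0.81 lie above the plotted neighbours, having been named for their size.

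The wider LXR target list did not follow ABCA1 and LPL. Of 23 listed genes, 18 were detected, with a median difference of -0.024 beside -0.041 over all 10565 genes. At 1.5-fold, 6.55% of all genes were higher and 9.63% lower. In the list the counts were 3 at least 1.5-fold higher, all of them members (LPL, ABCA1 and ABCG1), and 2 at least 1.5-fold lower. ABCG1 was detected in shLY6E only, so its direction was fixed by the filter. The lower genes were PLTP, a phospholipid transfer protein, at -0.71 (another probe gave -0.34), and SCD, a fatty acid desaturase that lies on chromosome 10, at -0.69. ACACA, the first enzyme of fatty acid synthesis, stood at 0.45. Among the 13 detected genes that are not members, the median was -0.18. SREBF1, the lipogenic transcription factor that LXR induces, was at -0.18 by its brightest probe and -0.39 by another.

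The PPAR target list had 24 genes, 17 of them detected, with a median of 0.10. Here 3 were at least 1.5-fold higher and 0 lower, beside 6.55% and 9.63% of all genes. LPL and PLIN2 were joined by ACSL1, which activates long-chain fatty acids, with an intensity of 161 against 167 and a difference of 0.69. ACSL1 was no longer past 1.5-fold without background correction (0.34), with an offset of 50 (0.48) or with a common median over all probes (0.31). CAT, which encodes catalase, was at -0.52, and PLIN5, another droplet coat protein, at -0.45. By their brightest probes, the fatty acid oxidation genes CPT1A, HADHA, HADHB and ACADVL lay between -0.21 and 0.11, though other probes of ACADVL gave 0.40 and -0.22. SLC25A20, the mitochondrial carnitine carrier, was at 0.29 by its brightest probe and -0.22 by another. The 13 detected genes that are not members had a median of -0.041.

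Among 16 nuclear receptors and coregulators, 8 were detected and PPARG was the 1 at least 1.5-fold higher, beside 6.55% of all genes. PPARD, the delta form of the receptor, was at 0.49, and PPARGC1B, a coactivator detected in shCtrl only, was at least 1.49-fold lower in the main setting. The direction of PPARGC1B was fixed by the filter. Its value ran from -0.19 without background correction to -0.78 with a common median over all probes. In the list of lipid droplet and storage genes PLIN2 stood apart from most others. Of 13 detected genes, PLIN2 was the 1 at least 1.5-fold higher and 4 were at least 1.5-fold lower, beside 6.55% and 9.63% of all genes. The list median was -0.40. DGAT1, which makes triglyceride, was at -0.88, CIDEB, a droplet-associated protein, at -0.84 (-0.49 without background correction), LIPA, the lysosomal acid lipase gene on chromosome 10, at -0.66, and BSCL2, which encodes seipin, at -0.64.

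Of the 6 detected scavenger and lipoprotein receptors, OLR1, a receptor for oxidized LDL, was detected in shLY6E only and was at least 1.71-fold higher. The direction of OLR1 was thus fixed by the filter. Its bound was under 1.5-fold without background correction (0.27 on the log2 scale) and with an offset of 50 (0.44). It was also under 1.5-fold with a common median over all probes (0.54). VLDLR, a lipoprotein receptor of the LDL receptor family, was 1.71-fold lower, and MARCO, a class A scavenger receptor, was at 0.48. Among the 10 detected cholesterol efflux genes ABCA1 and ABCG1 were the 2 at least 1.5-fold higher, and 2 were lower, beside 6.55% and 9.63% of all genes. The direction of ABCG1 was fixed by the filter. The bound of ABCG1 fell under 1.5-fold without background correction (0.28), with an offset of 50 (0.46) and with a common median over all probes (0.57). ABCA7, a close relative of ABCA1, was at -0.79, while NPC1 and NPC2, which move cholesterol out of lysosomes, were at -0.014 and -0.0088. APOC1, an apolipoprotein, was at -0.37. In the lipoprotein lipase list LPL, its activator gene APOC2 at -0.41 and its inhibitor gene ANGPTL4 at 0.10 were the 3 detected. GPIHBP1, the LY6-family protein that anchors LPL on capillaries, was not detected.

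**Figure D4:**
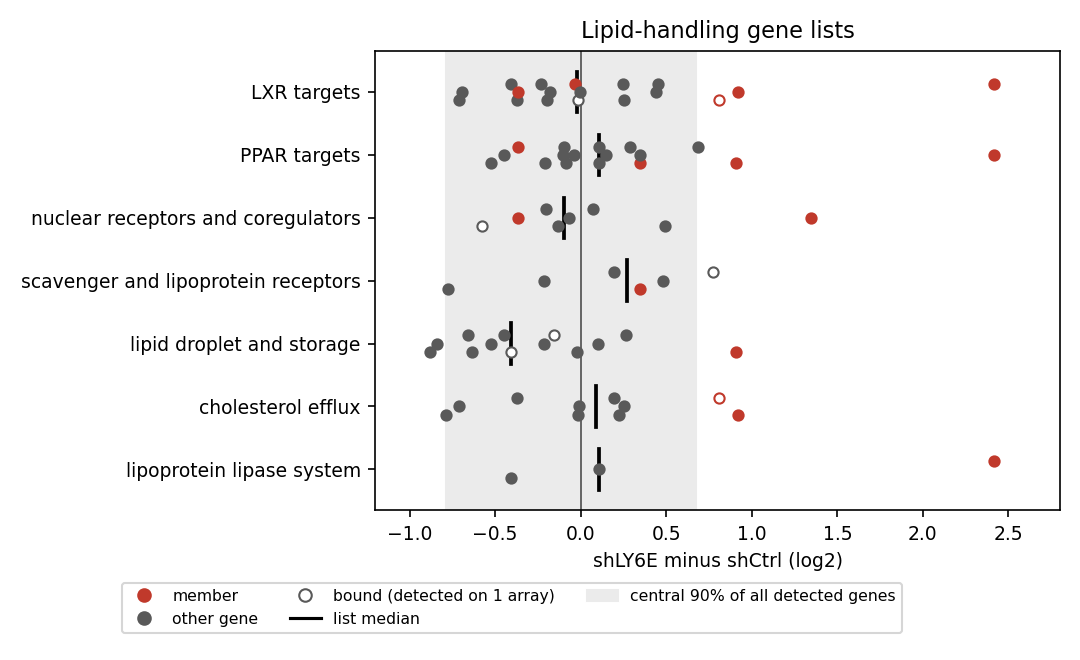
Difference between the arrays (log2, shLY6E minus shCtrl) of each detected gene in the 7 lists with at least 3 detected genes, members in red, bounds open, list medians as black bars and the central 90% of all detected genes shaded. LPL, PPARG, ABCA1, ABCG1 and PLIN2 lie to the right of the shading, and most other genes of their lists lie within it.

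Markers of the cell line were read beside these genes. Of 8 monocytic markers 7 were detected, with a median of 0.32 and a summed normalized signal of 17646 in shLY6E against 13300.4 in shCtrl. LYZ, which encodes lysozyme, made up most of that gap: without it the sums were 13027 and 12419.9. LYZ was at 2.39 by its brightest probe and 1.36 by another, and CSF1R, the receptor for macrophage colony-stimulating factor, was at 0.95, while ITGAM was at -0.48. Of 6 macrophage markers 4 were detected, with a median of 0.47, 3 of 4 above 0 and summed signals of 2413 and 2481. Of the 3 above 0, CD163 passed detection only through shLY6E, so its direction was fixed by the filter. CD68, which made up most of both sums, was at -0.22 by its brightest probe and at 1.68 and -0.19 by others, and without it the sums were 438 in shLY6E and 188 in shCtrl. GPNMB, a lysosomal glycoprotein of macrophages, made up most of that remaining gap. It was at 8.39 in shLY6E and 7.01 in shCtrl after normalization, a difference of 1.38. MARCO was at 0.48, and CD163, detected in shLY6E only, had a bound of 0.45, while MRC1 and MSR1 were not detected. The part of these markers in the differences of LPL, PPARG, ABCA1, ABCG1 and PLIN2 was not tested, and in bulk RNA fewer cells of a state and less RNA per cell cannot be told apart. Of 6 adipocyte markers ADIPOQ, PLIN1, CIDEC, GPD1 and LIPE were not detected, and LEP was at -0.37. Of the T cell and fibroblast markers 0 were detected, and CD79A, TEK and ALB were the B cell, endothelial and hepatocyte markers detected, in shLY6E only, with bounds between 0.087 and 0.30. The filter fixed the direction of each of these bounds.

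The size of the 5 higher members depended on the processing. LPL lay between 1.53 and 2.42 and PPARG between 0.89 and 1.35. ABCA1 and PLIN2 were lowest at 0.45 and 0.46, when the arrays were set to a common median over all probes, a setting in which the median over all genes was -0.42. Relative to that median they stood at 0.87 each, against 0.96 and 0.95 in the main setting. The bound of ABCG1 ran from 0.28 to 1.11, and its measured difference was 1.23. CD36 changed sign, to -0.074, under the common median over all probes. In that setting ABCA1, PLIN2 and ABCG1 (0.57) were under 1.5-fold, and NR1H3 at -0.77 was past 1.5-fold downwards.

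**Figure D5:**
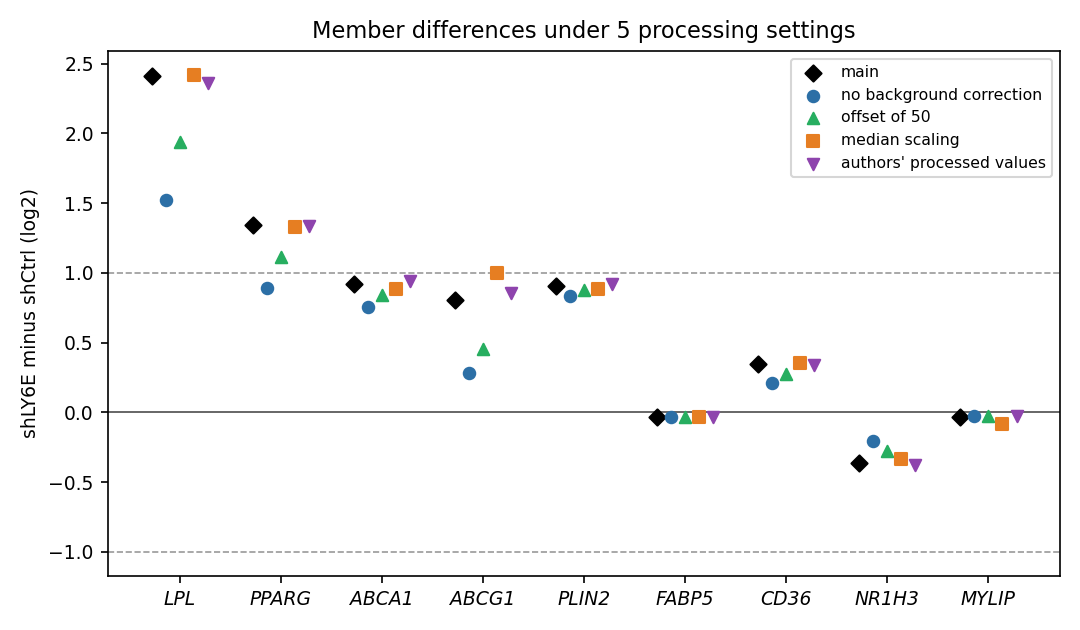
Difference between the arrays (log2, shLY6E minus shCtrl) of the 9 detected members under the main setting and 4 alternatives, with dashed lines at 2-fold. LPL falls from 2.41 to 1.53 without background correction and ABCG1 from 0.81 to 0.28, while FABP5 and MYLIP stay near 0 in all 5.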

How the data were processed

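Total RNA of THP-1 cells with a hairpin against LY6E or a scrambled hairpin was hybridised to 1 Illumina array each, grouped by sample title. The deposited unnormalized table holds a linear intensity and a detection p-value per probe, per the file headers. From the values, the intensity was neither background-subtracted nor scaled, and the detection p-value moved in steps of 1 in 770. A second deposited table holds the authors' processed intensity, from its values background-subtracted with equal medians of 6.14. Scanner software, probe genome build and the authors' methods were not given in the sources used here.

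Background was corrected by normexp from the detection p-values (offset 16), followed by quantile normalization and log2 (limma 3.58.1, R 4.3.3). Later steps used Python 3.11.15, numpy 2.4.6, pandas 2.3.3 and matplotlib 3.10.9. The detected probe (detection p-value under 0.01 on at least 1 array) with the highest mean stood for a gene. Where 1 array detected it, the other array's value was the higher of its own and the lowest detected value, which gives a bound. The platform annotation gave 30113 probes 1 symbol, 8 several and 17200 none; 30074 matched RefSeq (GRCh38.p14) by Entrez ID. Coordinates and sequences come from RefSeq start-site windows of that build.

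The members, the 8 gene lists and the 8 marker lists were chosen with earlier results of these data known. The rule named all members, LY6E and up to 3 other genes per list with the largest differences; further list genes and markers, such as SREBF1, BSCL2, LYZ and GPNMB, were picked with their values in view. The normalization and gene differences of the main setting were tested on simulated arrays with known differences, and the motif search on made-up sequences. The other steps were not tested in this way. Of 10 alternatives, 8 were planned and 2 added after seeing the data (a common median over all probes, and measured differences in place of bounds). The planned common median was taken over probes detected on both arrays, since 34.6% and 34.4% of probes were detected, a choice made after the median over all probes was seen to shift all genes. In the authors' values, negative numbers were set to 0 and 16 was added before log2.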

Additional observations from a re-analysis of the deposited data

How the results depend on the processing

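With 9 members valued, 1 in place of 2 was at least 2-fold higher without background correction and with a common median over all probes, and 0 were at least 2-fold lower under any setting. Without background correction the median over members was 0.28 in place of 0.81, LPL stood at 1.53, PPARG at 0.89 and ABCG1 at 0.28. With offset 50 the median was 0.46, LPL stood at 1.94 and ABCG1 at 0.46. Both settings shrink differences by construction. ABCG1 gave 1.11 with a detection p-value under 0.05 and 1.23 with no detection filter or when the bound was replaced by its measured difference, and had no value where detection on both arrays was required. A common median over all probes lowered the median of all genes from -0.041 to -0.42. There LPL stood at 1.99, PPARG at 0.90, ABCA1 at 0.45, PLIN2 at 0.46, CD36 at -0.074, MYLIP at -0.52, FABP5 at -0.46 and NR1H3 at -0.77, with a median over members of 0.45, an LXR list median of -0.50 and a PPAR list median of -0.26. Under it 130 of all genes passed 2-fold upwards and 909 downwards (12.5% of them upwards), against 240 and 269 (47.2%) in the main setting. Without background correction these were 97 and 65 (59.9%), and with offset 50 they were 144 and 129. Over the members, the counts and the LXR and PPAR list medians, 116 values under an alternative stayed within the probe spread or within 1.5 times the count and 23 moved by more; for other named genes these were 171 and 27. FABP4 had no detected probe at a detection p-value under 0.01 and got no value in the main setting. With no detection filter its undetected probe entered at -0.24. No paired analysis was possible because there was 1 array in each group.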

Other observations

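PPARD, the delta receptor, had 3 detected probes, which differed by 0.49, 0.43 and 0.59, all higher in shLY6E. It is the 1 other detected PPAR gene, since PPARA was not detected, and it was named by size of difference in its list.

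Near some members lay genes with larger differences than the member, looked at after the values were seen. CD83, a dendritic cell maturation marker 3 detected genes away from MYLIP, was at 2.28, while MYLIP was at -0.031. GSAP, 5 detected genes away from CD36, was at 1.47, and CELF1, an RNA-binding protein gene 4 detected genes away from NR1H3, was at 1.03. MX1 and MX2, interferon-induced antiviral genes near ABCG1, were at -1.31 and -1.21. No cause was tested for any of these.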
